A study of Mnemiopsis leidyi with 31 samples.

Results

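Embryos of the comb jelly Mnemiopsis leidyi were compared between 8 and 7 hours post fertilization (hpf) in 6 of the 31 RNA-seq libraries of a developmental time course. They were chosen by their labels alone. A library code consists of a year and a number, and 3 code series of 2013 held a library of each hour: 7 hpf 2013_17 with 8 hpf 2013_18 (series 2013_1), 2013_27 with 2013_28 (series 2013_2) and 2013_47 with 2013_48 (series 2013_4). Each library came from a pool of whole embryos, without any treatment, from wild-caught parents of the Woods Hole area, so that it mixes genotypes and cell types. Polyadenylated RNA was measured as read counts per transcript record. The other libraries of these hours, 7 hpf 2012_N1, 8 hpf 2012_18 and 8 hpf 2012_N8B, had no partner under this rule and were used for description and in the alternative fits to all libraries. No label says that the libraries of a series came from the same spawning.

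Ctenophores such as Mnemiopsis develop by a stereotyped cleavage, gastrulate early and pass directly to a small, free-swimming predator with tentacles, the cydippid. After gastrulation the ectoderm builds the comb plates, made of very large bundled cilia, together with the apical organ, the tentacle apparatus and a pharynx. The egg supplies messenger RNA that is gradually replaced by transcripts of the embryo's own genome. The deposited records carry numbered identifiers without names, and 0 of 31067 were found in the gene table of the assembly crg_Mlei_v2, so no gene family, pathway or cell type marker was looked up here, and the labelled stage was not checked against markers. In such pools, fewer cells of a type and less RNA per cell cannot be told apart. The results below therefore describe transcripts by their history at earlier hours, their level and their length.

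Total counts in the 6 libraries lay between 29195546 and 66728425. Libraries of a series resembled each other: the deviations from the hour mean correlated at 0.681 for series 2013_1, 0.673 for 2013_2 and 0.522 for 2013_4 across transcripts. The 6 combinations of unlike series gave values from -0.488 to -0.085. For each transcript the 3 deviations of an hour sum to 0, so positive values within series make the others negative on the whole. The negative values therefore add nothing of their own about the pairing. The TMM factors, which adjust a library's total for its make-up, were 0.829, 0.779 and 0.856 at 7 hpf. They were higher in every library of 8 hpf, at 1.07, 1.095 and 1.545. The highest was that of 2013_48, and the pair 2013_4 had the widest spread of changes. Among the libraries of 2012, those coded N went against the order of hours seen in 2013. The share of counts of transcripts low at 1 hpf, a group defined below, was 2.86% in the library labelled 1 hpf 2012_N7, 5.81% in that labelled 2 hpf 2012_N6 and 8.18% in that labelled 6 hpf 2012_N2. It was only 1.23% in the library labelled 7 hpf 2012_N1. Counts of libraries also overlapped. At all 29691 records counted in either, 1 hpf 2012_N7 had at least the count of 9 hpf 2012_37 (totals 84494309 and 70712060), and at all 28097 such records 4 hpf 2012_N4 had at least that of 5 hpf 2012_14 (totals 116632427 and 80243917). Such a share reached at most 80.5% between any 2 of the 6 libraries compared here. The libraries of 2012 enter no test below other than alternative fits to all 31 libraries and to 29 of them, without 2012_N7 and 2012_N4.

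In all 3 series the RNA pool was more evenly spread at 8 hpf than at 7 hpf. The number of transcripts at 1 CPM (counts per 1000000 counts of the library) or more was 10801 in 2013_17, 10469 in 2013_27 and 11769 in 2013_47, against 11896 in 2013_18, 12340 in 2013_28 and 14174 in 2013_48. By library totals every library of 8 hpf thus lay above every library of 7 hpf. The gain within a pair was 1095, 1871 and 2405 transcripts, a mean of 1790 ± 659 (SD, n = 3 pairs; exact paired permutation test, two-sided, p = 0.25, the smallest p that 3 pairs allow). With each library thinned to 29195546 counts the mean gain was 1798, and with library sizes that included the TMM factors it was 775. On that last scale the hours overlapped, since 2013_47 at 7 hpf had 12155 transcripts and 2013_18 and 2013_28 at 8 hpf had 11751 and 12068. The size of the gain and the separation of the hours therefore depend on the scaling, and the direction was the same in each pair.

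The counterpart was a smaller share for the abundant transcripts. The 1000 most abundant transcripts of each library took 64.2%, 68.6% and 68.7% of the counts at 7 hpf and 60.2%, 62.6% and 56.2% at 8 hpf. The mean difference was -7.47 ± 4.43 percentage points (SD, n = 3 pairs; exact paired permutation test, two-sided, p = 0.25). Counts that moved from transcripts with a smaller share to those with a larger one amounted to 9.79% of the library in series 2013_1, 12.6% in 2013_2 and 30.3% in 2013_4. The shares in 2012 were 64.3% in the library labelled 7 hpf 2012_N1, 59.4% in 8 hpf 2012_18 and 59.2% in 8 hpf 2012_N8B, which runs the same way if the labels hold.

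**Figure D1:**
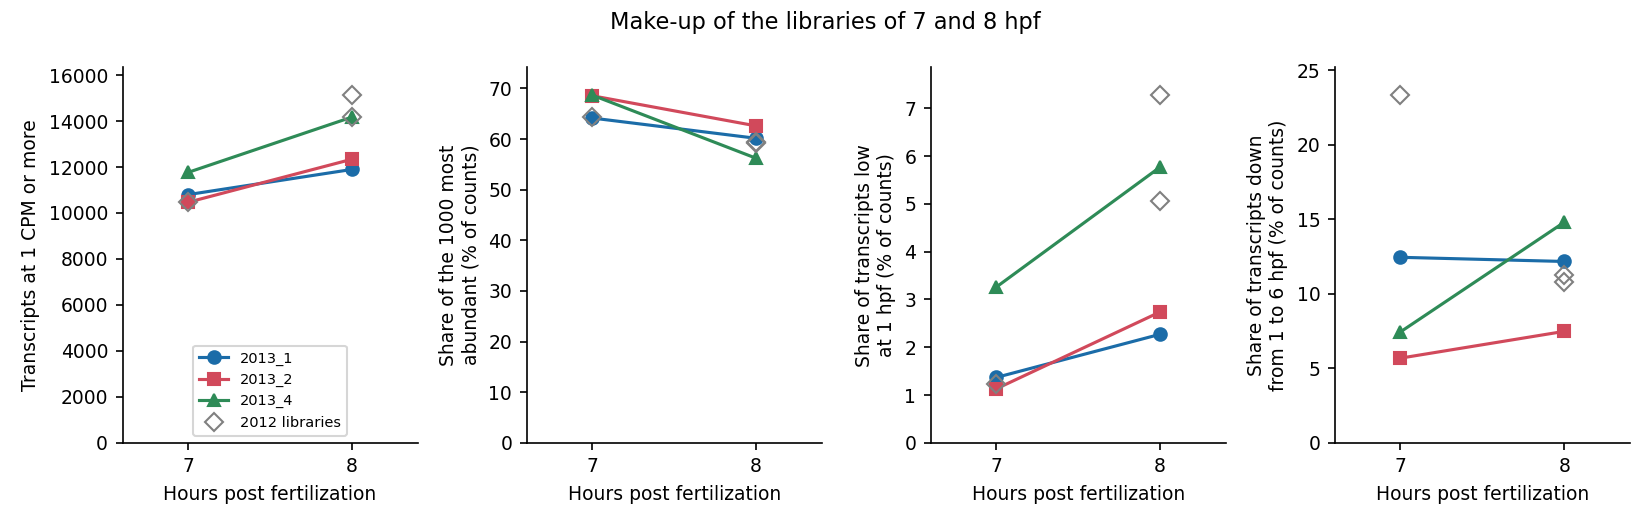
Number of transcripts at 1 CPM or more and shares of the counts (%) in the libraries of 7 and 8 hpf. Lines join the 2 libraries of a code series and open diamonds are the libraries of 2012. The number of transcripts and the share of those low at 1 hpf are higher at 8 hpf in all 3 series, the share of the 1000 most abundant is lower, and the share of transcripts at least 2-fold down from 1 to 6 hpf is lower in 2013_1 and higher in the other series.

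Transcripts that were low at 1 hpf, when most messenger RNA is maternal, held a larger share at 8 hpf. A record was called low at 1 hpf when it stood under 1 CPM in both 1 hpf libraries of 2013, which are not in the comparison, and 21297 of the 31067 records met this. Together they took 1.37% of the counts in 2013_17, 1.13% in 2013_27 and 3.26% in 2013_47. At 8 hpf they took 2.27% in 2013_18, 2.74% in 2013_28 and 5.77% in 2013_48. The share was higher in each pair, by 0.903, 1.61 and 2.51 percentage points, and averaged 1.92 ± 1.17% at 7 hpf and 3.59 ± 1.90% at 8 hpf (SD, n = 3; exact paired permutation test, two-sided, p = 0.25). The groups overlapped, because 2013_47 at 7 hpf lay above 2013_18 and 2013_28 at 8 hpf. In 2013_2 and 2013_4 the 6 hpf libraries stood at 1.35% and 2.50%, and the single 9 hpf library of 2013, 2013_49, at 7.66%. In 2013_2 the share was thus no higher at 7 than at 6 hpf, and the larger step came in the following hour.

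By library totals, more records rose past 1 CPM from 7 to 8 hpf than fell below it. Crossings of 1 CPM were not counted with TMM factors. With those factors the mean gain in transcripts at 1 CPM or more was 775 instead of 1790. In series 2013_1, 1206 records passed from under 1 CPM at 7 hpf to 1 CPM or more at 8 hpf and 111 went the other way. The numbers were 1930 against 59 in series 2013_2 and 2723 against 318 in series 2013_4. A total of 179 records crossed upward in all 3 series, of which 142 were low at 1 hpf, and 0 crossed downward in all 3. Low at 1 hpf were also 21297 of all 31067 records. In at least 2 series, 1292 records crossed upward, 994 of them low at 1 hpf, and 17 crossed downward, 14 of them low. Having been low at 1 hpf was thus not particular to upward crossings. These crossings were shallow. Passing from under 1 CPM to 5 CPM or more was seen for 14, 49 and 276 records in the 3 series, and the reverse for 0, 0 and 5. A last count used TMM factors and the 16530 transcripts tested. The number that went from under 1 CPM in every 7 hpf library to at least 5 CPM in every 8 hpf library was 0. So was the number with the opposite pattern.

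Transcript by transcript, none passed the threshold in the paired fit. edgeR's quasi-likelihood test with the code series as a block called 0 of 16530 transcripts tested (0%) at a Benjamini-Hochberg adjusted p of 0.05, and the smallest adjusted p was 0.173. Before adjustment, 1552 transcripts higher at 8 hpf (9.39% of those tested) and 1557 lower (9.42%) had p under 0.05, together 18.8%. The 2 hours did not overlap, on the TMM scale, for 1053 transcripts higher at 8 hpf (6.37%) and 1084 lower (6.56%). Higher in all 3 pairs were 4081 transcripts (24.7%), and lower in all 3 were 3726 (22.5%). Changes of at least 2-fold on the log2(CPM + 0.5) scale in every pair leaned upward, with 140 transcripts higher (0.847%) and 27 lower (0.163%). The transcripts tested include 328 that passed the count filter through the 8 hpf libraries alone and 2 through 7 hpf alone. Those 328 had to be higher at 8 hpf, and the 2-fold changes were not counted without them.

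Whether anything was called differed between tools, filters and scalings. DESeq2 with the same block called 439 transcripts higher (2.66%) and 724 lower (4.38%) at 8 hpf, and 1151 of these 1163 had an unadjusted p under 0.05 in edgeR. Of its calls, 428 of the 439 and 719 of the 724 had their direction in all 3 pairs, beside 24.7% and 22.5% of all transcripts tested. The calls were made on the same libraries, so this overlap adds no support of its own. Within edgeR, 1276 were called with no filter on low counts and 60 with library totals alone. limma voom called 0, with 3388 transcripts at an unadjusted p under 0.05. With only 3 pairs the calls also turned on single series, since edgeR called 1615 transcripts without series 2013_4, 675 without 2013_1 and 0 without 2013_2. Scaling set the balance. With library totals in place of TMM factors the median log2 fold change of all transcripts was 0.69 instead of 0.11, a shift of 0.57, and 95.3% of those at an unadjusted p under 0.05 were higher at 8 hpf instead of 49.9%. Medians of groups are therefore given below relative to the median of all transcripts tested, which takes out such a common shift.

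The level a transcript had before the comparison went with its change. Transcripts were grouped by their mean in both 6 hpf libraries of 2013, which are not in the comparison. Those at 100 CPM or more (2003 tested) had a median log2 fold change 0.73 below that of all transcripts, and 828 of them (41.3%) were lower at an unadjusted p under 0.05 against 7 that were higher (edgeR). In the pairs, on the log2(CPM + 0.5) scale, their median was -0.33 in 2013_1, -0.60 in 2013_2 and -1.07 in 2013_4 relative to all. Transcripts at 10 to 100 CPM (4474 tested) lay 0.26 below all transcripts, those at 1 to 10 CPM (4933) 0.19 above, and those under 1 CPM (5120) 0.50 above. In the fit to all pairs, and within 2013_1 and 2013_2, the order of these 4 groups by change was the reverse of their order by level. In 2013_4 the group at 1 to 10 CPM (0.28) lay above that under 1 CPM (0.20). The added 0.5 shrinks changes of scarce transcripts. The group under 1 CPM lay 0.225, 0.262 and 0.198 above all in the pairs, against 0.50 in the fit. The part of this offset in the order within 2013_4 was not tested. Of the group under 1 CPM, 820 (16%) were higher and 31 (0.605%) lower at an unadjusted p under 0.05 (edgeR), or 650 (13.6%) and 30 (0.626%) without those that passed the count filter through 1 hour alone.

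Read against all transcripts, those shares stand apart from 9.39% higher and 9.42% lower, though the direction itself depends on the scaling. With TMM factors 71.6% of the group at 100 CPM or more were lower in all 3 pairs and 1.7% higher. With library totals alone these were 26.5% and 22.5%, against 5.83% and 56.1% of all transcripts tested. The filter on low counts favoured transcripts seen at 8 hpf, since 328 transcripts passed it with all 7 hpf libraries under the count minimum and 2 with all 8 hpf libraries under it. Without these the group under 1 CPM lay 0.45 above all transcripts. Abundance, evenness of the pool and the TMM factors moved together in all 3 pairs, and the part of library preparation in this was not tested.

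History from 1 hpf onward gave a similar division. Among transcripts low at 1 hpf, 6814 were tested, and their median lay 0.37 above that of all transcripts, with 1149 (16.9%) higher and 88 (1.29%) lower at an unadjusted p under 0.05 (edgeR). Of them 320 passed the count filter through the 8 hpf libraries alone, and had to be higher there, and 2 through 7 hpf alone. Without these the median lay 0.35 above, with 983 (15.1%) higher and 86 (1.32%) lower, beside 8.53% and 9.6% of all transcripts counted in this way. Among transcripts at 10 CPM or more in both 1 hpf libraries, 5955 were tested, and their median lay 0.41 below, with 66 (1.11%) higher and 1368 (23%) lower. In all 3 pairs 6.3% of this group were higher and 49.4% lower with TMM factors, and 41.8% and 13.3% with library totals, so that its direction turned with the scaling. In each pair this abundant group was below all transcripts, at -0.24 in 2013_1, -0.41 in 2013_2 and -0.40 in 2013_4. The low group was above all transcripts by 0.25, 0.32 and 0.07.

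Both descriptions overlap, because 4574 of the 6814 low transcripts were also under 1 CPM at 6 hpf. Among transcripts of like level at 6 hpf, 10 to 100 CPM, the 266 that had been low at 1 hpf had a median 0.004 above that of all transcripts, while the 3629 that had been at 10 CPM or more lay 0.30 below. Of the 266, 46 (17.3%) were higher and 12 (4.51%) lower at an unadjusted p under 0.05, and of the 3629, 49 (1.35%) and 539 (14.9%) (edgeR). The pairs did not share the first of these medians, which relative to all was 0.19 in 2013_1, 0.56 in 2013_2 and -0.40 in 2013_4. For the group at 10 CPM or more, each pair was below all transcripts, at -0.21, -0.33 and -0.16. At other levels the difference by history was unlike this. At 1 to 10 CPM the medians were 0.20 above all transcripts for 1950 low at 1 hpf and 0.04 above for 374 at 10 CPM or more, and at 100 CPM or more they were 0.71 below (24 transcripts) and 0.73 below (1952 transcripts).

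**Figure D2:**
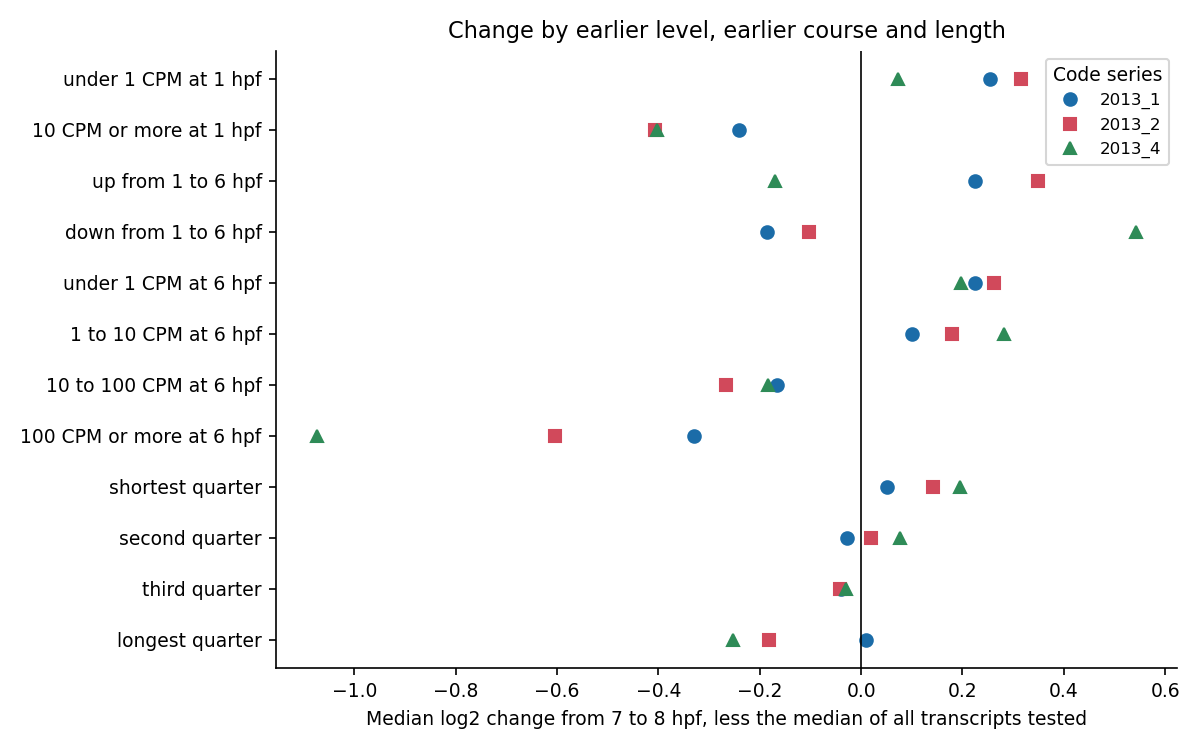
Median log2 change from 7 to 8 hpf of groups of transcripts in each code series, less the median of all transcripts tested (x axis, log2(CPM + 0.5) scale). The groups by level at 6 hpf run from -1.07 to 0.28 with the same sign in all 3 series for each group, while groups by course from 1 to 6 hpf take opposite signs in 2013_4.

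The course from 1 to 6 hpf did not carry on uniformly into the next step. A transcript was called up when its mean log2(CPM + 0.5) was at least 1 higher at 6 than at 1 hpf in the libraries of 2013, and down when it was at least 1 lower and had 1 CPM or more in both 1 hpf libraries. The 3885 up transcripts tested lay 0.23 above all transcripts in 2013_1 and 0.35 above in 2013_2, but -0.17 relative to all in 2013_4. The 1820 down transcripts stood at -0.19, -0.10 and 0.54. In series 2013_4, then, transcripts that had gone down by 6 hpf stood relatively higher at 8 than at 7 hpf. Their summed share of counts was 12.5% in 2013_17, 5.68% in 2013_27 and 7.44% in 2013_47, and 12.2% in 2013_18, 7.48% in 2013_28 and 14.8% in 2013_48. The mean difference, 2.96 ± 3.95 percentage points (SD, n = 3 pairs; exact paired permutation test, two-sided, p = 0.5), was smaller than its spread and was 0.759 without series 2013_4. With a cut of 2 on the log2 scale the share was higher at 8 hpf in all 3 pairs, at 1.07%, 0.424% and 0.825% against 1.09%, 0.556% and 1.70%, a mean difference of 0.344 percentage points (exact paired permutation test, two-sided, p = 0.25). For the up transcripts the share went from 10.7%, 14.2% and 18.2% to 11.4%, 15.0% and 15.4%, a mean difference of -0.403 ± 2.02 percentage points (SD, n = 3 pairs; exact paired permutation test, two-sided, p = 1) that turned to 0.76 without series 2013_4.

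Length went weakly with the change. Quartiles of length among the transcripts tested were bounded at 1165, 1828 and 2783 bases. The shortest group lay 0.24 above the median of all transcripts and the longest 0.17 below. Among the shortest, 28.2% were higher in all 3 pairs and 12.6% lower, and among the longest 22% and 31.3%, against 24.7% and 22.5% of all tested. Through the 8 hpf libraries alone, 159 of the shortest and 12 of the longest passed the count filter, and these had to be higher there. Without transcripts that passed through 1 hour alone, the medians lay 0.219 above and 0.155 below. At an unadjusted p under 0.05 (edgeR), 8.36% of the shortest were then higher and 5.34% lower, beside 8.53% and 9.6% of all. The shares in all 3 pairs were not counted in this way. With library totals alone the shares were 54.5% higher and 3.99% lower for the shortest and 57.9% and 6.75% for the longest, against 56.1% and 5.83% of all, so that the order of the higher shares turned. The longest group stood at 0.01 in 2013_1, -0.18 in 2013_2 and -0.25 in 2013_4 relative to all, so that series 2013_1 did not show it. The part of length apart from level was not tested.

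The 3 series moved alike to unequal degrees. Across the 16530 transcripts tested, the change on the log2(CPM + 0.5) scale correlated at r = 0.566 between series 2013_1 and 2013_2 (Spearman rho = 0.513), at 0.475 between 2013_2 and 2013_4 (rho = 0.481) and at 0.257 between 2013_1 and 2013_4 (rho = 0.265). These pairs share no library, but transcripts are not independent replicates and no p is given. The SD of the change was 0.50 in 2013_1, 0.63 in 2013_2 and 1.04 in 2013_4. Relative to the median change of each pair, 3750 transcripts (22.7%) were higher and 3991 (24.1%) lower in all 3 series.

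**Figure D3:**
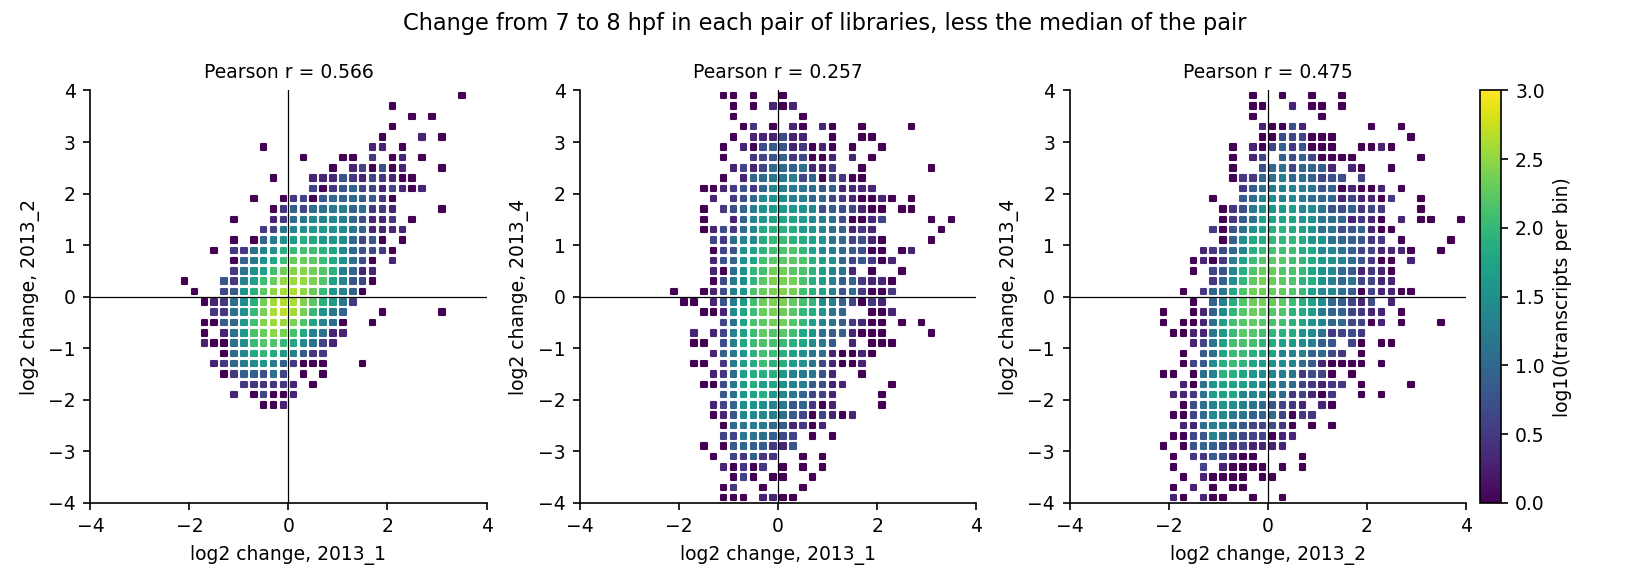
Change of each transcript from 7 to 8 hpf on the log2(CPM + 0.5) scale, less the median of its pair, in one code series (x axis) against another (y axis), binned, with colour for the log10 number of transcripts per bin. The cloud leans along the diagonal most for 2013_1 with 2013_2 (r = 0.566) and is widest along the axis of 2013_4, and up to 20 transcripts of a series lie outside the axes.

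The transcripts named here had the smallest p among those with a mean of at least 10 CPM and a common direction in all pairs, and none of them passed the threshold. Their CPM in the 6 libraries include the TMM factors of these libraries, as do their means and folds. Identifiers are given without names because the files pair them with none. Mle_019026 (1129 bases) stood at 9.38 CPM in 2013_17, 4.04 CPM in 2013_27 and 24.8 CPM in 2013_47, and at 40.5 CPM in 2013_18, 25.9 CPM in 2013_28 and 191 CPM in 2013_48. Every library of 8 hpf was above every one of 7 hpf. The means were 12.7 ± 10.8 CPM and 85.9 ± 91.6 CPM (SD, n = 3), and the folds within the pairs were 4.32, 6.39 and 7.71. The log2 fold change was 2.58 (SE 0.28), with an adjusted p of 0.173 in edgeR and of 1.91e-09 in DESeq2.

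Mle_003010 (803 bases) behaved much like it. Its level was 17.1 CPM in 2013_17, 3.60 CPM in 2013_27 and 40.5 CPM in 2013_47 at 7 hpf, and 61.4 CPM in 2013_18, 22.5 CPM in 2013_28 and 163 CPM in 2013_48 at 8 hpf. It was higher at 8 hpf within each pair, by 3.59, 6.24 and 4.02 times, although 2013_47 at 7 hpf lay above 2013_28 at 8 hpf. The spread between series therefore exceeded part of the step, and the pairing separated them. The log2 fold change was 2.15 (SE 0.28), with an adjusted p of 0.192 in edgeR and of 1.35e-06 in DESeq2.

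Both transcripts were near 0 at 1 hpf in 2013 and higher at each later hour from 4 to 8 hpf in series 2013_2. With TMM factors from the 19 libraries of 2013, Mle_019026 was at 0.14 CPM in 1 hpf 2013_21 and 0.032 CPM in 2013_41. In series 2013_2 it stood at 0.698 CPM at 5 hpf and 1.73 CPM at 6 hpf. In 9 hpf 2013_49 it was at 71.1 CPM, below the 175 CPM of 8 hpf 2013_48 on that scale. Mle_003010 was at 0.335 and 0.063 CPM in the 1 hpf libraries, at 1.95 CPM in 6 hpf 2013_26 and 7.20 CPM in 6 hpf 2013_46, and at 179 CPM in 9 hpf 2013_49 against 149 CPM in 8 hpf 2013_48. In the libraries of 2012, scaled over all 31, the library labelled 7 hpf 2012_N1 had 1.07 CPM of the first and 0.96 CPM of the second. In 8 hpf 2012_18 and 2012_N8B the first stood at 118 and 186 CPM and the second at 153 and 204 CPM. The first was also at 178 CPM in the library labelled 2 hpf 2012_N6 and at 55.9 CPM in that labelled 6 hpf 2012_N2, against 0.607 CPM in 6 hpf 2012_23. In the library labelled 1 hpf 2012_N7, whose counts cover those of 9 hpf 2012_37, the first was at 44.7 CPM and the second at 59.9 CPM, against 51.7 and 69.3 CPM in 2012_37.

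Of the transcripts lower at 8 hpf, Mle_006187 (2496 bases) had its highest level of series 2013_2 at 7 hpf. In the comparison it was at 498 CPM in 2013_17, 199.8 CPM in 2013_27 and 162 CPM in 2013_47, and at 168 CPM in 2013_18, 83.9 CPM in 2013_28 and 50.6 CPM in 2013_48. The hours overlapped by a small margin, 2013_18 lying above 2013_47, and the ratio of 8 to 7 hpf within the pairs was 0.337, 0.420 and 0.312. The log2 fold change was -1.50 (SE 0.26), with an adjusted p of 0.192 in edgeR and of 0.000261 in DESeq2. In series 2013_2 it had stood between 81.6 and 93.4 CPM from 1 to 5 hpf and at 107 CPM at 6 hpf, on the scale of the 19 libraries. At 7 hpf it was at 190.1 CPM there and at 8 hpf at 80.2 CPM, just under the values of the first 5 hours. In 6 hpf 2013_46 it was at 276 CPM, above the 153 CPM of 7 hpf 2013_47, so that in series 2013_4 the highest value came an hour earlier.

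Mle_028033 (1306 bases) was at 98.0 CPM in 2013_17, 120.4 CPM in 2013_27 and 52.8 CPM in 2013_47, and at 47.5 CPM in 2013_18, 34.9 CPM in 2013_28 and 15.0 CPM in 2013_48. With TMM factors all libraries of 8 hpf lay below those of 7 hpf. By library totals the hours overlapped, 2013_18 (2309 of 45453770 counts) lying above 2013_47 (3014 of 66728425 counts). The means were 90.4 ± 34.4 CPM and 32.5 ± 16.4 CPM (SD, n = 3), with ratios of 0.485, 0.290 and 0.284 in the pairs. The log2 fold change was -1.55 (SE 0.27), with an adjusted p of 0.192 in edgeR and of 0.000568 in DESeq2. On the scale of the 19 libraries Mle_028033 had been at 86.4 and 147 CPM at 1 hpf. On that scale it was at 38.1 CPM in 9 hpf 2013_49 against 13.7 CPM in 8 hpf 2013_48. Scaled over all 31 with TMM factors, the libraries of 2012 did not show the same step. Mle_028033 was at 47.4 CPM in the library labelled 7 hpf 2012_N1, 40.5 CPM in 8 hpf 2012_18 and 56.4 CPM in 8 hpf 2012_N8B. Over the alternatives run, the adjusted p of Mle_019026, Mle_003010, Mle_006187 and Mle_028033 went from as low as 6.51e-16, 1.3e-14, 1.13e-05 and 1.18e-06 (edgeR without series 2013_4) to 0.866 for each in edgeR without the block.

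**Figure D4:**
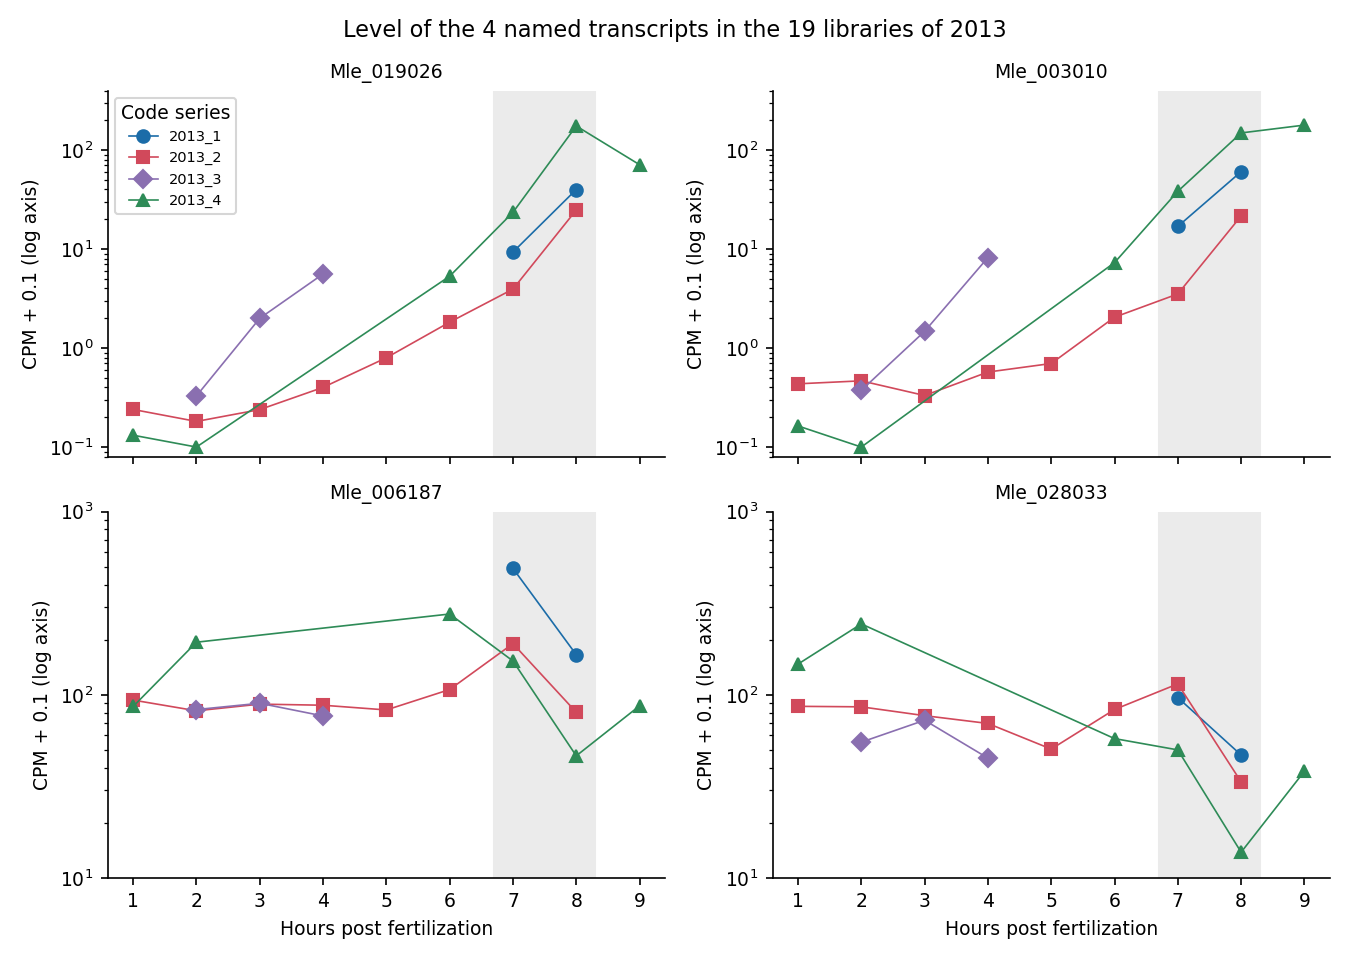
CPM + 0.1 (log axis) of the 4 named transcripts in the 19 libraries of 2013, by hours post fertilization, with TMM factors from these libraries. Lines join libraries of a code series and the grey band marks 7 and 8 hpf. Mle_019026 goes from 0.14 CPM at 1 hpf to 24.7 CPM at 8 hpf in series 2013_2, and for Mle_006187 and Mle_028033 every line is lower at 8 than at 7 hpf.

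The 1552 transcripts higher and the 1557 lower at an unadjusted p under 0.05 were followed in libraries that did not choose them. At 1 hpf the median of the higher list was 0.11 CPM and that of the lower list 110.0 CPM, beside 2.68 CPM over all transcripts tested. Of the higher list 1149 (74%) were low at 1 hpf, and of the lower list 88 (5.65%), beside 41.2% of all tested. Without the transcripts that passed the filter through 1 hour alone, these were 983 of 1382 (71.1%), 86 of 1555 (5.53%) and 40.1%. The median of the higher list was 0.791 CPM at 4 hpf, 0.882 CPM at 6 hpf and 5.59 CPM at 9 hpf. That of the lower list was 112 CPM at 6 hpf and 81.3 CPM at 9 hpf.

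Directions in other libraries leaned the same way. In 2012, 91% of the higher list stood above the library labelled 7 hpf 2012_N1 in both 8 hpf libraries, beside 54.4% of all transcripts tested, and 60.6% of the lower list stood below it in both, beside 39.3% of all. The library 2012_N1 is the only one labelled 7 hpf in 2012. Transcripts down from 1 to 6 hpf held 23.3% of its counts against 5.68% to 12.5% in the 7 hpf libraries of 2013. In the comparison of 2012 the labelled hour and this make-up cannot be told apart. In series 2013_4, 9 hpf 2013_49 was above 6 hpf 2013_46 for 87.9% of the higher list and 21.2% of the lower list, beside 54.7% of all tested. These directions were read with TMM factors from all 31 libraries. They cover all 1552 transcripts of the higher list, of which 1382 remain without those that passed the count filter through 1 hour alone. The directions were not counted without them.

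Over the transcripts tested here, the step from 7 to 8 hpf within a code series was larger than the one before it. Changes of at least 2-fold were counted on the log2(CPM + 0.5) scale relative to the median change of the step. The transcripts tested had passed a filter on the 7 and 8 hpf libraries alone, 328 of them through 8 hpf only. This choice can raise the count of the step from 7 to 8 hpf, and its part was not tested. In series 2013_2 the step from 6 to 7 hpf had 152 higher and 57 lower (1.26%), and the step from 7 to 8 hpf had 1022 higher and 322 lower (8.13%). Of the 7 hourly steps in that series only the one from 5 to 6 hpf had more, 1228 higher and 2250 lower (21%). In series 2013_4 there were 1140 higher and 811 lower (11.8%) from 6 to 7 hpf, 2562 and 2552 (30.9%) from 7 to 8 hpf, and 2730 and 2674 (32.7%) from 8 to 9 hpf. Series 2013_1 held only these 2 hours, with 505 higher and 113 lower (3.74%). Neighbouring steps share a library, each step has 1 library an hour, and no test was made between them. The step leaned upward in 2013_1 and 2013_2 and was balanced in 2013_4.

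**Figure D5:**
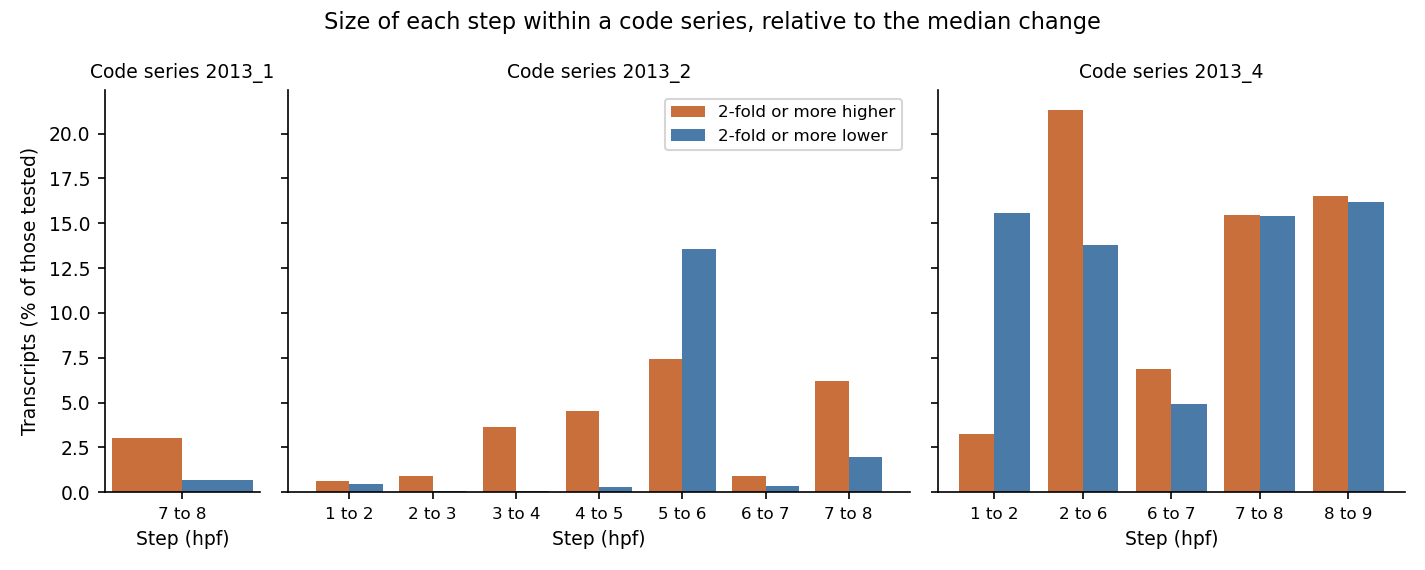
Share of the transcripts tested (%) that changed by at least 2-fold, relative to the median change, between consecutive libraries of each code series, with bars for higher and lower. The step from 7 to 8 hpf amounts to 3.74% in 2013_1, 8.13% in 2013_2 and 30.9% in 2013_4, and the step before it is smaller in both series that hold 6 hpf.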

How the data were processed

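The deposited count table holds whole-number read counts of 31067 transcript records per library, and the authors' notes name Bowtie2 and SAMtools without versions or roles, per the submitters' processing notes. No source used here names the reference or the counting method, so that counts of near-identical records are uncertain. The deposited RPKM values carry the record's length and 1 common total of 1413671828 counts. They were rescaled to each library's own total and served as an alternative.

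Counts of the 6 libraries were filtered with filterByExpr (16530 kept), normalized with TMM factors and fitted with edgeR 4.0.16 (R 4.3.3) with code series and hour as terms, which leaves 2 residual degrees of freedom. Adjusted p-values are Benjamini-Hochberg values, and SE was taken as the size of the log2 fold change over the root of the F statistic. DESeq2 1.42.0 and limma 3.58.1 were alternatives. The fit was also run on simulated counts, drawn with its own dispersions and the series deviations of these libraries. Such counts cannot show whether the result here is reliable. CPM of single libraries and of groups at 1 and 6 hpf use library totals unless TMM is named. Shares refer to all counts of a library. Libraries have no molecular identifiers. Labels call the libraries replicates without naming separate spawnings, so p-values cover the spread among them, which may be partly technical. The libraries, groups and tests were chosen with earlier results of these data known. The groups by level at 6 hpf and the share of the 1000 most abundant transcripts were added after seeing the fit. Code series is the block by the rule of the comparison, and same-series libraries deviated together (correlation 0.522 to 0.681). Named transcripts are the 2 in each direction that pass the threshold with the largest change, or, where fewer pass, those with the smallest p, among transcripts with a mean of at least 10 CPM and 1 direction in all pairs.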

Additional observations from a re-analysis of the deposited data

Results flagged for a closer look

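The share of counts held by transcripts low at 1 hpf was 3.26% in 7 hpf 2013_47, apart from the other 3 libraries of 7 hpf, which lay between 1.13% and 1.37%. Mle_006187 stood at 154 CPM in 8 hpf 2013_18, scaled over all 31 libraries, while the other 4 libraries of 8 hpf lay between 54.5 and 79.5 CPM. Both were picked out by the gap to the nearest library relative to the range of the group, a criterion that chance meets in about 1 in 20 groups.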

How the results depend on the processing

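The paired edgeR fit called 0 transcripts, and it stayed at 0 under RLE factors, limma voom, a filter of 5 CPM in at least 3 libraries, the 19 libraries of 2013, all 31 libraries, 29 of them without 2012_N7 and 2012_N4, robust dispersions (these last 2 chosen after seeing the data) and limma on RPKM. Without the replicate block it also called 0, with 760 at an unadjusted p under 0.05 instead of 3109. Library totals alone gave 60, of which 60 were higher and 0 lower. DESeq2 gave 1163 (439 higher, 724 lower), and no filter on low counts gave 1276 (675 higher, 601 lower). Leaving out 1 code series gave between 0 and 1615 calls (0 to 1058 higher, 0 to 557 lower). The cause of these differences was not tested. The share of transcripts up from 1 to 6 hpf changed sign, from -0.403 to 1.51 percentage points with a cut of 2 on the log2 scale, and ranged from -0.99 to 0.76 when 1 series was left out. The 4 named transcripts kept their direction under every alternative run. They had been picked for 1 direction in all 3 pairs, so refits of these libraries could hardly reverse it. With 3 pairs an exact test cannot go below 0.25, and leaving out 1 library of a pair is the same as leaving out the pair.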
